A study of Mus musculus with 2 samples.

Results

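The Rectum cells of the normal mouse anorectal junction are described here, as a population of 63 cells taken from a single-cell RNA library. Their members were the barcodes that the authors named Rectum in the normal library, out of 939 named normal cells and 2564 barcodes of that library. The other named normal cells were 432 Anal Canal, 257 Basal and 187 Suprabasal cells. Across both libraries of the series there were 5086 named cells. The study asked how cells of the transition zone, the narrow band where the stratified anal epithelium meets the glandular rectum, maintain and repair their neighbours.

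Both libraries came from C57/BL6J mice with the alleles K17CreERT2 and R26R-GFP, in which tamoxifen switches on a ZsGreen1 reporter in cells that use the Krt17 promoter. Tamoxifen was given to the normal and to the wounded animals, so the normal library is unwounded but not untreated. Each library was a pool of several mice, in a study that used both sexes, sorted for live Epcam+ cells without CD45, CD11b, CD31 or PDGFRa. The wounded library was made 1 week after hot EDTA and a brush had stripped the rectal crypts next to the junction. With 1 library per condition and animals pooled, the spread between mice is unknown, no test was possible, and every interval below is a 95% interval that covers counting error only.

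The rectal epithelium is a single layer of cells folded into crypts. Stem and dividing cells lie at the crypt base. Absorptive colonocytes, which take up water, salt and fatty acids made by bacteria, face the lumen, and goblet cells fill the surface with mucus. Rare enteroendocrine cells release peptide hormones, and rare tuft cells sense the luminal content.

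The 63 Rectum cells were 6.71% of the named normal cells. They held between 667 and 25880 UMIs each, with a median of 10885, and a median of 2716 detected genes. A UMI marks a single captured RNA molecule, and levels are given in CPM, the summed UMIs of a gene relative to all UMIs of its population. All 63 cells together had 704191 UMIs, against 9368534 UMIs in the 876 other named cells, so that 3 UMIs, the number a count of 0 allows, are 4.26 CPM in the Rectum cells and 0.320 CPM in the others. The median share of mitochondrial UMIs was 9.26% in the Rectum cells, and 4.28%, 4.77% and 5.01% in the Anal Canal, Basal and Suprabasal cells. No barcode of a Rectum cell occurred in both libraries.

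The markers of the label were present in these cells. The study named the cluster from genes of this kind, so their presence is a description and no independent check. Krt8, a keratin of simple epithelia (chr15:101996698-102004482 of GRCm38, minus strand), was found in 63 of 63 cells with a median of 18 UMIs and a range of 1 to 113. Lgals4, a galectin of the gut lining (chr7:28833854-28841708, plus strand), was found in all 63 cells as well, with a median of 38 UMIs and a range of 7 to 170. The transmembrane mucin Muc13 (chr16:33794037-33819934, plus strand) was found in 60 cells. Muc3, another transmembrane mucin (chr5:137134922-137149322, minus strand), was found in 48 cells, and the 15 cells without it are described further on. After thinning each cell to 2000 UMIs, which left out 3 Rectum cells, Muc13 was present in 44 of 60 cells (73.3%, 95% exact binomial interval 60.3 to 83.9%), against 0 of 397 Anal Canal, 2 of 255 Basal and 0 of 183 Suprabasal cells. Lgals4 was present in 60 of 60 thinned Rectum cells and in 8 Anal Canal, 9 Basal and 3 Suprabasal cells, so that the share in cells of another name was between 1.64 and 3.53%.

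Markers of other tissues were counted as well. None of the 11 immune genes, Ptprc, Cd3e, Lyz2 and Tyrobp among them, had a UMI in any Rectum cell. The 7 fibroblast genes summed to 4 UMIs, the 8 endothelial genes to 7, the 6 smooth muscle genes to 6 and the 8 melanocyte and glia genes to 6. Among tuft markers, Dclk1, Trpm5, Pou2f3 and Avil were at 0, and 45 of the 46 UMIs of that list were from Lrmp, which the other named cells also contained at 35.2 CPM.

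To describe the rectal programme, the summed levels of the 63 cells were set against those of the 876 other named cells. The authors drew the clusters from the expression of these same cells, so the ratios are a description and not a test. Of 5359 genes with a mean of at least 20 CPM over both populations, 951 (17.7%) were at least 2-fold higher and 577 (10.8%) at least 2-fold lower in the Rectum cells. Against each of the 3 other clusters taken alone, 671 of the 951 higher genes and 324 of the 577 lower genes kept that 2-fold distance. The median gene was 0.13 higher on the log2 scale. A gene that is low in one population entered only through its level in the other and then had to differ, so the counts and medians of the gene lists below, over the members that entered, follow in part from this rule and describe the lists without supporting a direction.

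**Figure D1:**
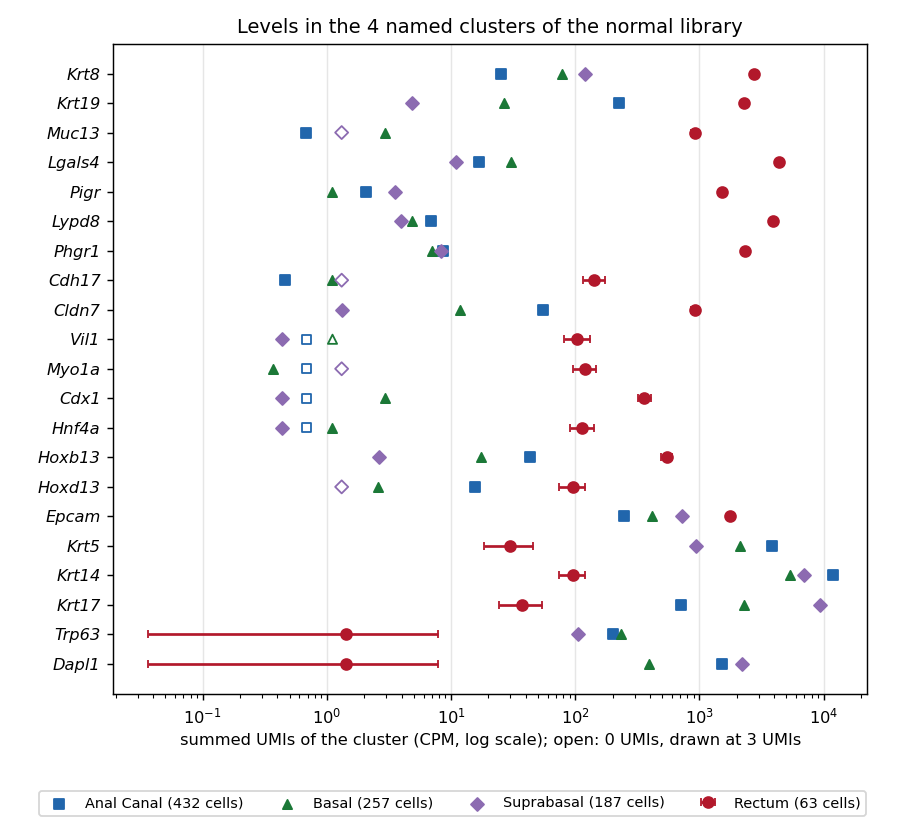
Levels in the named clusters of the normal library, in CPM of summed UMIs on a log axis, with 95% Poisson intervals for the 63 Rectum cells (red circles). Open symbols stand for clusters with 0 UMIs, drawn at 3 UMIs. Gut genes from Krt8 to Hoxd13 and also Epcam lie right of the other clusters in the Rectum cells, and Krt5 to Dapl1 lie left of them.

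The 25 genes that set the Rectum cells apart most, by the lower bound of the ratio, divided into genes present in nearly every Rectum cell and genes carried by a minority. Pigr, the receptor that carries antibodies across the epithelium, was at 1524 CPM (95% interval 1434 to 1618) and was detected in 63 of 63 cells. It was at 2.05 CPM in Anal Canal, 1.11 CPM in Basal and 3.50 CPM in Suprabasal cells, a log2 ratio of 9.48 (8.84 to 10.20) over all other named cells. Phgr1, a small protein of the gut epithelium, was at 2308 CPM in 62 cells and between 7.02 and 8.67 CPM in the other clusters. Lypd8, which coats bacteria at the colonic surface and keeps them away from it, was at 3924 CPM in 61 cells, with a log2 ratio of 9.47 (9.07 to 9.89). Sycn, a protein of secretory granules, was at 1715 CPM in 59 cells, and Cdx1, a homeobox factor of the intestine, at 361 CPM in 56 cells. The secreted phospholipase Pla2g10 was at 250 CPM in 51 cells and had 2 UMIs in all other named cells (log2 ratio 10.19, interval 8.32 to 13.25).

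Other leading genes were carried by few cells. Mptx1, a pentraxin, reached 4999 CPM but was detected in 20 of 63 cells, and a single cell gave 38.2% of its 3520 UMIs. Reg4 was detected in 21 cells, Spink4 in 22, Tff3 in 20, Sval1 and Clps in 16 each, and Retnlb in 13. Ly6g, better known as a neutrophil surface antigen, had 102 UMIs in 6 Rectum cells and none in the other named cells, which puts it at least 8.82 higher on the log2 scale, while Ptprc and Lyz2 were at 0 in the same cells. Car1, a carbonic anhydrase, had 156 UMIs in 10 cells. These minority genes belonged to separable groups of cells, described further on.

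The simple keratins, the filament proteins of single-layered epithelia, were higher in 4 of 5 genes that entered, of 6 listed. Krt8 was at 2741 CPM against 25.3, 78.0 and 119 CPM in Anal Canal, Basal and Suprabasal cells. Krt18, its usual partner, was at 575 CPM against 17.6, 24.8 and 12.7 CPM. Krt19 was at 2266 CPM against 224, 26.6 and 4.82 CPM, so the Anal Canal cells had the highest level among the others. Krt7 was at 131 CPM (105 to 160), below the 397 CPM of the Anal Canal cells and above the 33.6 and 9.64 CPM of the Basal and Suprabasal cells. Among 8 of 12 listed genes that entered for the brush border, the dense layer of microvilli on absorptive cells, 6 were higher with a list median of 6.15 on the log2 scale. Vil1, which bundles actin in microvilli, was at 104 CPM in 37 cells with a single UMI in all other named cells, and Myo1a, the motor that ties the membrane to the bundle, was at 119 CPM in 42 cells, also with a single UMI elsewhere. Ezr, a membrane linker of many epithelia, differed by 0.27 (0.03 to 0.50).

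Cell contacts were of a different make in the Rectum cells. Of 17 tight junction genes 12 entered, of which 9 were higher and 2 lower. Cldn7 was at 922 CPM against 54.8 CPM in Anal Canal cells, the next highest cluster, and Cldn3 at 454 CPM against 16.4 CPM. Cldn2, a claudin that forms channels for sodium and water, was at 125 CPM against at most 3.07 CPM. In the opposite direction, Cldn1, the barrier claudin of stratified epithelia, had no UMI in the 63 cells and was at 12.1, 45.5 and 99.4 CPM elsewhere. Cldn4 was at 5.68 CPM against 68.7 CPM in the other named cells. Of 22 genes for adhesion 16 entered, of which 4 were higher and 8 lower. Cdh17, the cadherin of intestinal cells, was at 142 CPM and at most 1.11 CPM in another cluster, and the desmosomal cadherin Dsg2 was at 131 CPM against 32.2 CPM. Dsc3, a desmosomal cadherin of stratified cells, and Col17a1, a hemidesmosome collagen, each had 0 UMIs, against 169 and 193 CPM in the others. Epcam, the antigen used for the sort, was at 1755 CPM against 246, 413 and 728 CPM.

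Of 20 transcription factors of the gut 13 entered, of which 11 were higher, several of them only through their level in the Rectum cells. Hnf4a, a nuclear receptor of the gut and liver, was at 114 CPM in 42 cells, with 4 UMIs in all other named cells. Foxa2 had 34 UMIs in 21 cells and none elsewhere. Klf5 was shared more widely, at 669 CPM against 313, 160 and 155 CPM, and Klf4 (log2 ratio 0.46) and Ehf (-0.62) stayed within 2-fold. Cdx2, the partner of Cdx1 and a master factor of the intestine, had 0 UMIs in the 63 cells, which allows up to 4.26 CPM, and 1 UMI in the whole normal library. In the 397 wounded Rectum cells it had 6 UMIs, where Cdx1 had 754. Whether the counting reference reports Cdx2 reads poorly was not tested.

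Squamous factors other than Runx1, which was at 14.2 CPM, were near the limit of detection. Of 12 listed, 5 entered and were lower. Trp63, which specifies stratified epithelia, had 1 UMI in the 63 cells against 186 CPM in the others, and Pitx1 and Tfap2a had none. Of 12 posterior Hox genes, which mark position along the body, 5 entered and were higher, all but Hoxb13 only through their level in the Rectum cells. The others did not enter, among them Hoxa11 and Hoxd9 with 0 and 1 UMI in the Rectum cells. Hoxb13 was at 547 CPM (493 to 604) in the Rectum cells, 43.4 CPM in Anal Canal, 17.4 CPM in Basal and 2.63 CPM in Suprabasal cells. Hoxd13 followed the same order with 95.1, 15.5, 2.59 and 0 CPM. Hoxb9 was at 42.6 CPM against at most 3.33 CPM.

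**Figure D2:**
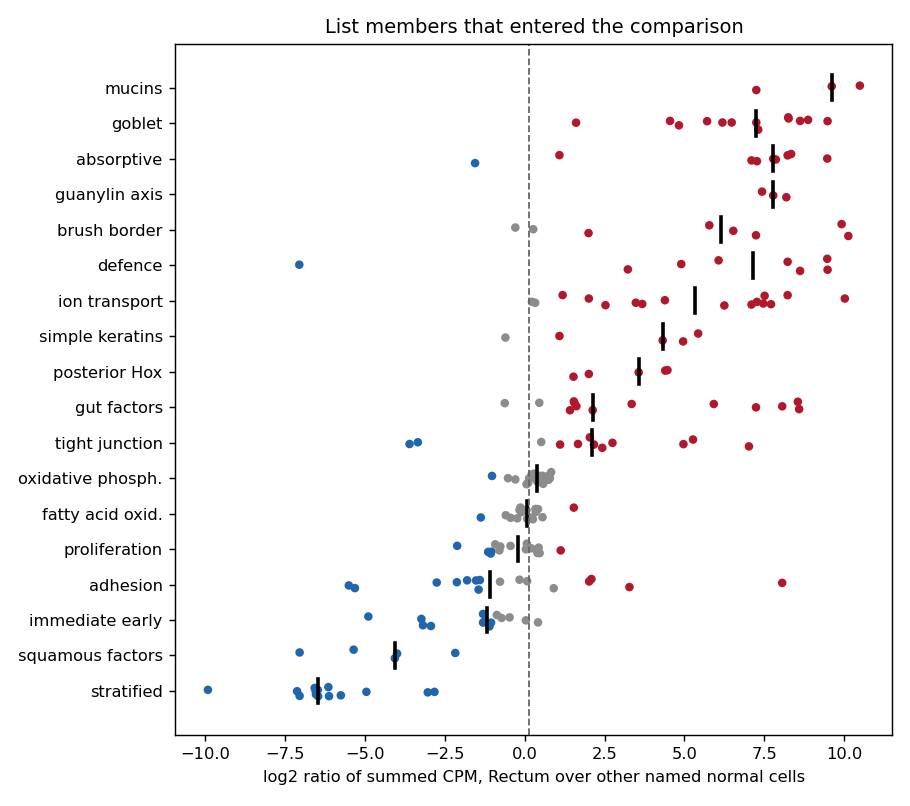
Members of 18 gene lists that entered the comparison, as log2 ratio of summed CPM in the 63 Rectum cells over the 876 other named normal cells. Red points are at least 2-fold higher, blue points at least 2-fold lower, black bars are list medians, and the dashed line is the median of all 5359 genes (0.13). Gut lists lie to the right, stratified genes to the left, and energy metabolism near the dashed line.

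Of 19 genes for transport of ions and water 16 entered, of which 14 were higher, with a median log2 ratio of 5.32. Cftr, the chloride channel of crypts, had 40 UMIs in 23 Rectum cells and none in the others, at least 7.47 higher. Slc12a2, which loads secreting cells with chloride, was at 231 CPM against 10.7, 31.8 and 106 CPM. Slc4a4, a bicarbonate transporter, had 41 UMIs in 20 cells and 3 UMIs elsewhere. Atp1b1, a subunit of the sodium pump, was at 834 CPM against 206 CPM in the other named cells together. Against the Suprabasal cells alone, with 1216 of 2282455 UMIs, it stayed within 2-fold. Car2, a carbonic anhydrase, stayed within 2-fold of the summed other named cells, at 834 CPM against 671 CPM in Anal Canal and 1121 CPM in Suprabasal cells. It was over 2-fold higher than in the Basal cells alone, with 727 of 2705001 UMIs. The guanylin hormones and their receptor, which set fluid secretion in the gut, were higher in the 3 of 5 genes that entered: Guca2a was at 1058 CPM, Guca2b at 93.7 CPM and the receptor Gucy2c at 55.4 CPM, with 45, 3 and 3 UMIs in all other named cells.

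Of 20 defence genes 8 entered, of which 7 were higher. Beside Lypd8 and Pigr, Pglyrp1, which binds bacterial walls, was at 547 CPM in 57 cells against at most 38.5 CPM in another cluster. Ccl28, a chemokine that attracts antibody-producing cells, had 45 UMIs in 31 cells and 2 UMIs elsewhere. The gene that went the other way was Lcn2, an iron-trapping protein, with 2 UMIs in the Rectum cells and 694 and 700 CPM in Basal and Suprabasal cells. Reg3b, Reg3g and Nos2 had no UMI in the Rectum cells. Class I antigen presentation was lower for B2m, at 351 CPM against 1253 CPM, although the Anal Canal cells were lower still at 236 CPM.

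Energy metabolism differed little. Of 24 nuclear genes of the respiratory chain, 23 stayed within 2-fold, with a median log2 ratio of 0.40, and of 16 genes of fatty acid oxidation 14 did, with a median of 0.07. Acads, which breaks down short chains such as butyrate, was the only one of the latter that was higher, at 101 CPM against 34.6 CPM. Of 10 genes of the endoplasmic reticulum and protein export none passed 2-fold. In drug and alcohol metabolism, Adh1 was at 899 CPM against 8.22, 173 and 32.9 CPM, and Sult1b1 had 73 UMIs and none elsewhere. Gsta4 was lower at 98.0 CPM against 593 CPM in the other named cells together. It was not lower than in the Basal cells alone, with 256 of 2705001 UMIs.

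Cell division genes as a list summed to 2088 CPM in Rectum cells, 2442 CPM in Anal Canal and 2290 CPM in Basal cells, and to 998 CPM in Suprabasal cells. Of 16 genes, 11 stayed within 2-fold, 4 were lower and 1 higher, with a median log2 ratio of -0.20. The higher one was Mki67, a protein of dividing cells, at 122 CPM against 55.8 CPM. After thinning, it had a UMI in 7 of 60 Rectum cells (11.7%, 4.82 to 22.6%) and in 11.1%, 7.84% and 3.28% of the Anal Canal, Basal and Suprabasal cells.

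Of 14 immediate early genes, which respond within minutes to handling and to growth signals, 9 were lower and none higher, with a median log2 ratio of -1.18. The Basal cells set this ratio for the list as a whole: its sum was 2303 CPM in Rectum, 1877 CPM in Anal Canal, 2210 CPM in Suprabasal and 10038 CPM in Basal cells. Ier3 was at 7.10 CPM against 211 CPM and Dusp1 at 29.8 CPM against 269 CPM. Jund (0.42) and Ier2 (0.04) stayed within 2-fold. Of 7 heat shock genes 4 were lower, and Hspa1a had 1 UMI against 113 CPM in the others.

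All 14 stratified genes were lower, with a median log2 ratio of -6.47. Their residual levels in the Rectum cells ranged from 0.104% (Dapl1, 1 UMI) to 14.2% (Perp) of those in the other named cells, and the list as a sum stood at 2.07%. Krt14 was at 95.1 CPM (73.7 to 121), which was 1.08% of its level elsewhere. The other keratins of the list were between 0.720% (Krt1) and 3.24% (Krt10), with Krt5 and Krt17 both at 1.13%, and Lgals7 was at 1.08%. Sfn stood with Perp at a higher share, 12.3%. No Rectum cell held more UMIs of the stratified list than of Krt8, Krt18, Krt19, Muc13, Muc3 and Lgals4, and the highest stratified count of any cell was 27 UMIs, with a median of 8. After thinning, Krt17 had a UMI in 5 of 60 Rectum cells (8.33%, interval 2.76 to 18.4%), against 178 of 183 Suprabasal cells. At 4000 UMIs it was 10 of 57 Rectum cells (17.5%) and without thinning 24 of 63 (38.1%), against 162 of 163 and 184 of 187 Suprabasal cells. The part of free RNA in these residual counts was not tested. ZsGreen1, the reporter, had 0 UMIs in the 63 cells, which allows up to 4.26 CPM by the one-sided limit. It was at 4.34, 4.81 and 4.82 CPM in Anal Canal, Basal and Suprabasal cells, and the two-sided 95% interval of a count of 0 reaches 5.24 CPM, above all of them, so a difference was not detectable at this depth.

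Among the most reduced genes outside the keratins, Krtdap, a protein of differentiating keratinocytes, was at 21.3 CPM against 3797, 183 and 8756 CPM in Anal Canal, Basal and Suprabasal cells. Crip2 had no UMI in the Rectum cells and was at 523, 451 and 516 CPM in the same clusters, at least 6.88 lower on the log2 scale. Cst6, a protease inhibitor, was at 199 CPM in Rectum cells against 21786 CPM, nearly all of it from the Suprabasal cells with 87278 CPM, while the Anal Canal cells were at 231 CPM.

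The Rectum cells were then divided among themselves. From the 500 most variable genes, 5 principal components and Ward clustering into 3 groups, 10, 52 and 1 cells were obtained. In 5 groups, a number chosen after seeing the data, the 52 cells divided into 15 and 37, and a cell with 667 UMIs left the 10. That cell was kept with the 10 here, so the groups combine both divisions. The groups were made from these genes, so that what follows describes them and tests nothing. The 10 cells, 15.9% of all, are called absorptive-like after their marker list, and the 15 cells, 23.8%, goblet-like. The 37 cells, 58.7%, are left without a type. Median UMI counts were 8098, 9386 and 12645 per cell. The remaining cell had 1190 UMIs and 24.6% mitochondrial UMIs.

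**Figure D3:**
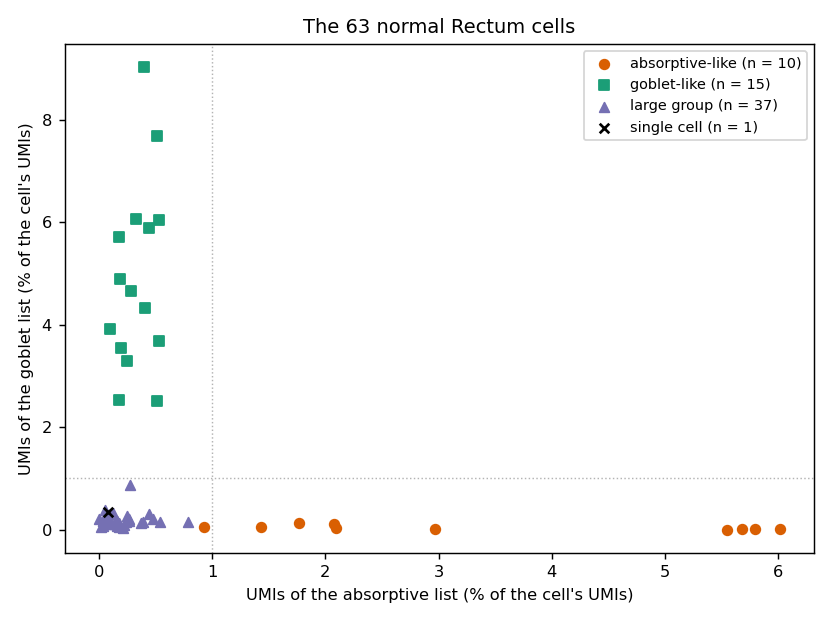
The 63 normal Rectum cells by the share of their UMIs from the absorptive list (x) and from the goblet list (y), both in percent, with symbols for the groups of the clustering. Dotted lines mark 1%. No cell is over 1% on both axes, and the goblet-like cells start at 2.50%.

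The lists separated the groups by their share of UMIs, although every goblet-like cell also held between 6 and 57 UMIs of the absorptive list, which includes Guca2a. The goblet list made up 2.50 to 9.03% of the UMIs of each goblet-like cell, with a median of 4.66%, at most 0.126% in an absorptive-like cell and at most 0.871% in a cell of the 37. The absorptive list made up 0.928 to 6.02% of the absorptive-like cells, with a median of 2.53%, and at most 0.533% and 0.787% in the goblet-like cells and the 37. A limit of 1%, set after seeing the data, thus gave the same 15 goblet-like cells and 9 of the 10 absorptive-like cells.

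Absorptive-like cells were led by Saa1, Ly6g, Car4, Slc26a3 and Pmp22. Slc26a3, the exchanger that takes up chloride, had 92 of its 93 UMIs in this group, in 8 of 10 cells. Krt20, a keratin of mature surface cells, was at 792 CPM in them against 6.51 CPM in goblet-like cells and 27.1 CPM in the 37. Fxyd4, a regulator of the sodium pump, was at 1714 CPM against 0 and 33.3 CPM, and the microvillus cadherin Cdhr5 at 735 CPM against 58.6 and 62.5 CPM. Krt8 was at 8730 CPM against 1061 and 2410 CPM. A single cell with 13561 UMIs decided several of these genes. It held all 93 UMIs of Car4, 44 of 45 UMIs of Aqp8, a water channel, and 295 of 308 UMIs of Saa1, an acute-phase protein. In the other 9 absorptive-like cells Car4 was at 0, Aqp8 and Saa1 had 1 and 12 UMIs, but Slc26a3 kept 68 UMIs in 7 cells, Lypd8 1182 UMIs in all 9, and Ly6g 55 UMIs in 5.

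Goblet-like cells were led by Mptx1, Reg4, Retnlb, Sval1 and Clps. The secretory regulators Atoh1 (43 of 44 UMIs) and Spdef (20 of 20) lay almost wholly in this group, as did Ramp1, a receptor subunit, with 214 of 227 UMIs at 1393 CPM. Best2, a bicarbonate channel, was found in 15 of 15 goblet-like cells with 60 of its 63 UMIs. Hsd11b2, the enzyme that shields the aldosterone receptor from glucocorticoids, was found in 15 of 15 at 781 CPM, against 72.0 CPM in absorptive-like cells and 45.8 CPM in the 37. The guanylin hormones took different routes: Guca2a was at 4999 CPM in absorptive-like and 2025 CPM in goblet-like cells, whereas Guca2b was at 86.4 and 338 CPM, with 52 of its 66 UMIs in goblet-like cells. Muc3 was found in 2 of 15 goblet-like cells, against 9 of 10 absorptive-like cells and 36 of the 37, at 84.6, 2262 and 1213 CPM. Muc13, in contrast, was found in 15 of 15, 9 of 10 and 35 of 37 cells. Of the 15 Rectum cells without Muc3, 13 were therefore goblet-like.

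The group of 37 was led by genes of cell division, Ube2c, Cenpf, Cenpa, Knstrn and Mki67, but these did not lie in all of its cells. Mki67 was found in 17 of 37 cells and Ube2c in 16. The 16 genes of the proliferation list made up 0.0213 to 0.881% of the UMIs per cell with a median of 0.111%. In the group, 12 cells over 0.2%, a limit set after seeing the data, held 1194 of the 1470 list UMIs of all Rectum cells. Outside the group, 1 goblet-like cell was also over this limit. The ion transport list as a sum was lowest in the group, at 3092 CPM against 3346 CPM in goblet-like and 9797 CPM in absorptive-like cells, Slc26a3 and Car1 being highest in the latter. Some transport genes, chosen after their values were seen, were highest in the group of 37. Kcne3, a potassium channel subunit, was found in 31 of 37 cells (217 CPM, with 104 of its 110 UMIs). Slc5a8, which takes up short-chain fatty acids, was found in 29 (171 CPM against 43.2 CPM in absorptive-like and 6.51 CPM in goblet-like cells), and Slc6a14, an amino acid transporter, in 28 (227 CPM against 86.4 and 0 CPM). Cftr had 37 of its 40 UMIs in the group, in 21 cells, and the water channel Aqp4 all 29 of its UMIs, in 14 cells. The detoxifying genes Gstm1 (481 CPM against 14.4 and 156 CPM) and Sult1a1 (110 CPM against 14.4 and 0 CPM) were also highest in the group, whereas Sult1b1 (60.4 CPM against 634 CPM in absorptive-like cells) and Cyp2c55 (4.17 CPM against 475 CPM) were not, and the drug metabolism list summed to 2033 CPM in the group, 2636 CPM in absorptive-like and 801 CPM in goblet-like cells.

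**Figure D4:**
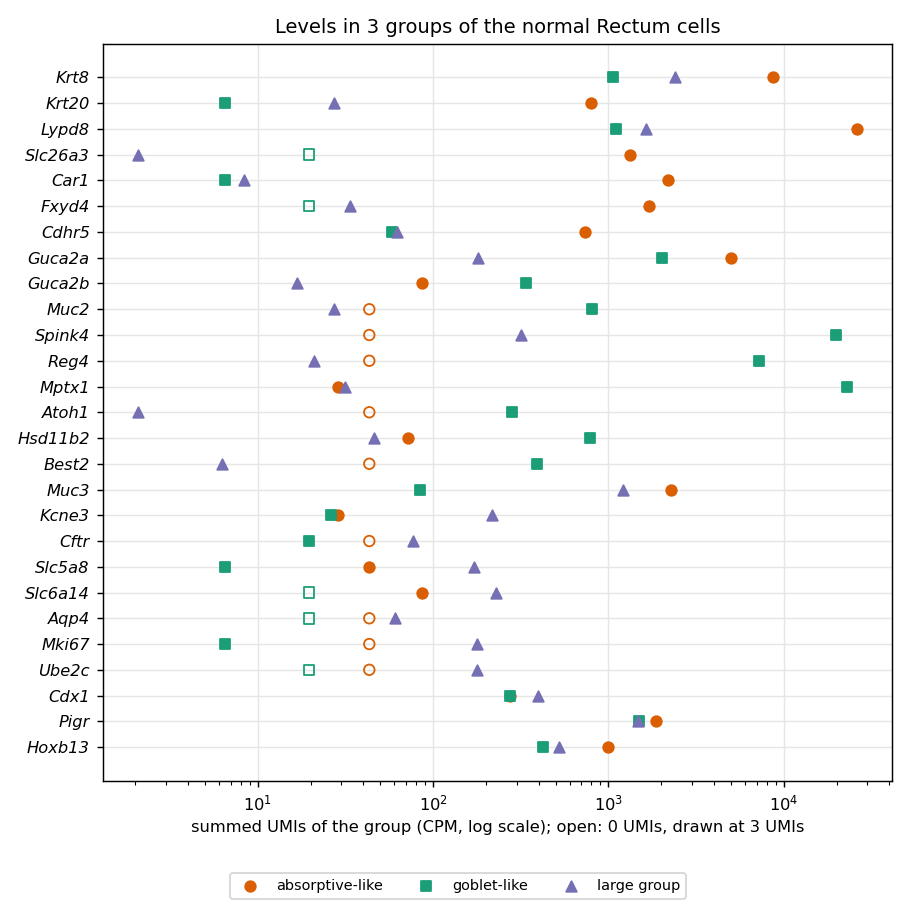
Levels of 27 genes in the 3 groups of the normal Rectum cells, in CPM of summed UMIs on a log axis (10 absorptive-like cells, 15 goblet-like cells and the large group of 37 cells). Open symbols stand for 0 UMIs, drawn at 3 UMIs of that group. The lowest rows, Cdx1, Pigr and Hoxb13, vary less between the groups, whereas Slc26a3, Best2 and Slc5a8 are each led by a different group.

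Pigr and Cdx1 stayed within 2-fold between the groups. Pigr was at 1858, 1497 and 1483 CPM in absorptive-like, goblet-like and the 37 cells, and Cdx1 at 274, 273 and 398 CPM. Hoxb13 was at 994, 423 and 523 CPM, over 2-fold higher in absorptive-like than in goblet-like cells. The channel-forming Cldn2 was at 0 in absorptive-like cells and at 202 and 119 CPM in the other groups.

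Crypt genes differed in how widely they were found. Lgr5, the marker of crypt base stem cells, had 3 UMIs in 2 of 63 cells, and Ascl2 13 UMIs in 7 cells, whereas Sox9 was found in 33, Lrig1 in 24 and Cdca7 in 23 cells. Of the 5 crypt genes that entered the comparison with other named cells, Lrig1 was higher (51.1 CPM against 13.9 CPM), Myc was lower, and Smoc2, Cdca7 and Sox9 stayed within 2-fold. Among the Rectum cells, enteroendocrine signal was concentrated in a single cell of the group of 37, with 13211 UMIs. It held 86 of the 145 UMIs of the list, and no other cell more than 5. The peptide hormone Pyy gave 40 of its 44 UMIs there, the granin Chga 16 of 17, the factor Isl1 13 of 19 and Fev 8 of 8. The signal was not particular to the Rectum cells. The list summed to 206 CPM in them, 291 CPM in Anal Canal, 1782 CPM in Basal and 2481 CPM in Suprabasal cells. Normal Basal cells held 1773 UMIs of Pyy and 269 of Chga, but 27 of Ddc against 43 in the Rectum cells. Suprabasal cells held 5559 UMIs of Cpe and 1 of Pyy.

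**Figure D5:**
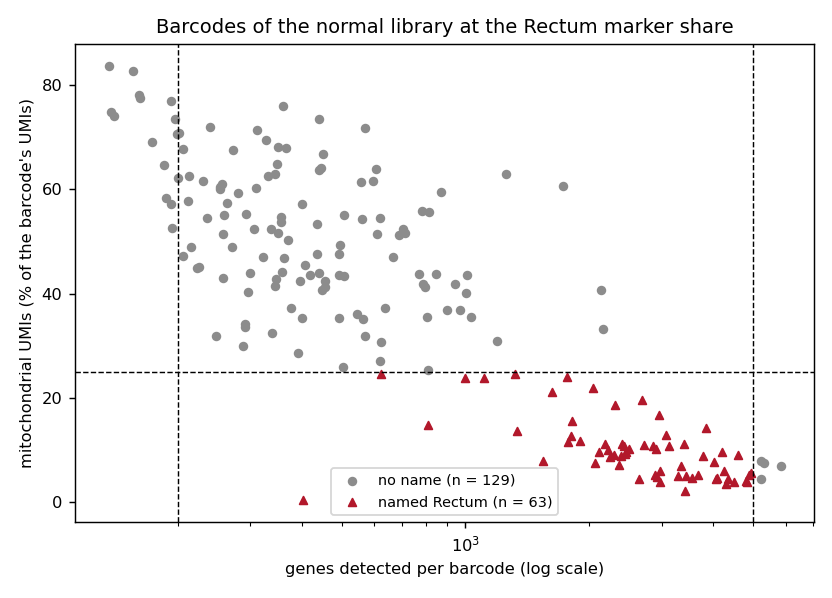
Detected genes (log axis) against the mitochondrial share of UMIs in percent, for the 63 named Rectum cells and for 129 unnamed barcodes of the normal library with a like share of Krt8, Muc13, Muc3 and Lgals4. Dashed lines mark the authors' limits of 25%, 200 and 5000 genes, and 125 of the unnamed barcodes are at or over 25%.

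The 63 cells were those that had passed the authors' limits, and 129 unnamed barcodes of the normal library carried the same 4 markers at a like share. Their number depends on the share required, with 64 at the share that 50% of the named Rectum cells reach and 191 at the share that all but the lowest reach, so the 6.71% among named cells is a share after filtering.

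The wounded library had 397 Rectum cells, with 4110418 UMIs and a median of 9991 per cell. Their median mitochondrial share was 12.9%, against 9.26% in the normal Rectum cells. Of 13 immediate early genes 6 were higher and 1 lower in the wounded cells, and of 7 heat shock genes 3 were higher and 1 lower. Their part in the other differences was not tested. Condition, library, counting software and the list of counted genes changed together, so their parts cannot be told apart. The normal library had 31054 features and the wounded library 32285, with 30406 gene identifiers in both. Over the gene identifiers of both libraries, of 5514 genes with a mean of at least 20 CPM, 342 (6.2%) were at least 2-fold higher and 328 (5.95%) at least 2-fold lower in the wounded Rectum cells. Of these, 217 and 164 differed in the same direction by 2-fold in the Basal or Suprabasal cells as well. The like share over all 5514 genes is not given, so these numbers do not measure an excess. Rps12, for example, was higher by 5.77 on the log2 scale in Rectum, 5.99 in Basal and 6.11 in Suprabasal cells. The pseudogene Rpl10-ps3 was lower, with log2 ratios of -5.13, -5.41 and -4.78. Cells named Basal also differed in keratins between the libraries: Krt13 was at 8.93, Krt1 at 7.16, Krt14 at 0.65 and Krt17 at -2.57. The part of the library in the shared differences was not tested.

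Goblet genes were higher in part. Of 19 goblet genes 9 were higher in the wounded cells and none lower, with a median log2 ratio of 0.93 against -0.06 for all genes. Their levels also differed between the libraries in cells of another name, where counts were low. Muc2 had 69 wounded and 2 normal UMIs in Basal cells, a log2 ratio of CPM of 4.03. In Suprabasal cells it had 155 and 6 UMIs (2.35), and Zg16 had 36 and 1 in Basal cells (4.09). The total UMIs of these populations were unequal, so the ratios and not the raw counts compare the libraries. Over Basal cells the median ratio of the list was 2.42, nearly all from genes with a mean under 20 CPM there, while Ramp1 (-4.73) went the other way. Clca1, a mucus-processing protein, was at 802 CPM against 22.7 CPM in the normal cells, Zg16 at 444 CPM against 28.4 CPM, and Fcgbp at 744 CPM against 115 CPM, while Reg4 (-0.15) and Atoh1 (0.30) stayed within 2-fold. The goblet list passed 1% of UMIs in 131 of 397 wounded cells (33.0%, 28.4 to 37.9%) and 15 of 63 normal cells (23.8%, 13.98 to 36.2%). These intervals cover counting only, cells are not replicates of a condition, and 58 wounded cells and 1 normal cell lay between 0.5 and 2%, so the shares are a description. Of 10 absorptive genes 4 were lower and none higher. Guca2a was at 500 CPM against 1060 CPM and Cyp2c55 at 13.4 CPM against 49.8 CPM. The other lower genes were Car4 and Slc26a3. Without the single normal cell that held all 93 UMIs of Car4, an alternative chosen after seeing the data, 2 of 9 absorptive genes were lower and 1 higher. Slc26a3 was then at 57.0 CPM against 100.1 CPM, under 2-fold, and Car4 had 220 wounded UMIs and no normal one. Slc6a14 was at 31.5 CPM against 163 CPM, a log2 ratio of -2.37. Of 11 stratified genes 9 were higher and none lower, with a median of 1.73. The stratified list summed to 2216 CPM in the wounded against 779 CPM in the normal Rectum cells, and was over 1% of UMIs in 14 wounded and no normal cells. The fibroblast list summed to 246 against 5.69 CPM, with Col3a1 as its most abundant gene at 101 CPM. Antibody genes, which plasma cells use, were among the genes with the largest ratios: Igkc was at 1422 CPM against 5.69 CPM, Igha at 480 CPM against 4.27 CPM and Jchain at 165 CPM against 4.27 CPM. The 11 immune genes of the list summed to 17.4 CPM against 0. The part of these other cell types' transcripts in the remaining differences was not tested, and 32 wounded Rectum cells, but none of the normal ones, held more stratified than simple-epithelium UMIs.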

How the data were processed

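Single-cell RNA libraries of the anorectal junction were made by the authors with a 10x Genomics 3′ protocol. The UMI count per gene and barcode was deposited without normalization, from Cell Ranger 3.1.0 (4.0.0 in the header of the wounded matrix), and Seurat 3.2.2 was used to filter and name cells (over 200 and under 5000 genes, under 25% mitochondrial UMIs). The authors also deposited tables on the natural log scale, whose values give whole numbers once exponentiated and reduced by 1. Cell Ranger and Seurat versions are from the submitters' processing notes. Cluster names were taken from these tables and levels from the counts.

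Counts were summed per population with numpy 2.4.6 and scipy 1.17.1 and given as CPM with exact Poisson intervals. Ratios carry exact binomial intervals and shares Clopper-Pearson intervals, and 0 UMIs were set to 3 as a bound. A gene entered with a mean of 20 CPM and was called at 2-fold. Named genes were the 25 with the highest lower bound (at least 100 UMIs), the 15 with the lowest upper bound, 12 per direction between libraries, 10 per group of cells (at least 30 UMIs), and the members of 36 gene lists, of which those that bear on these cells are given. Of the barcodes, 1 occurred in both libraries, and it was not a named Rectum cell. The authors' flow gate discriminated doublets before loading. No doublet caller was run, and droplets that caught several cells were not tested for. Ratios and intervals were checked on simulated counts with known fold changes. The cells and the lists were chosen with earlier results of these data known. Lists whose counts are not given above had these numbers of genes that entered, higher and lower: goblet 13, 13 and 0; absorptive 9, 8 and 1; tuft 1, 0 and 0; enteroendocrine 6, 1 and 3; Merkel 4, 2 and 1; small intestine and Paneth 2, 1 and 0; aldosterone response 4, 2 and 1; Notch and secretory fate 6, 2 and 3; wound and inflammation 8, 1 and 5; antigen presentation 4, 0 and 2; drug metabolism 9, 6 and 1; mucins 3, 3 and 0. Positions follow GENCODE M21 on GRCm38. Some genes of the lists are not reported here.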

Additional observations from a re-analysis of the deposited data

Results flagged for a closer look

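A rectal signal was found in barcodes to which the authors gave no name. The 4 markers Krt8, Muc13, Muc3 and Lgals4 made up at least 0.463% of the UMIs in 129 of the 1625 unnamed barcodes of the normal library, a share that 56 of the 63 named Rectum cells and 4 of the 876 other named cells reached. Of the 129, 125 had at least 25% mitochondrial UMIs and the other 4 had 5000 or more genes, so that none met the authors' limits. They had a median of 1244 UMIs and of 51.5% mitochondrial UMIs. Leaving mitochondrial genes out of the total, the goblet list stood at 4939 CPM in them against 12753 CPM in the named Rectum cells, the absorptive list at 5525 against 6135 CPM, and the stratified list at 3025 against 849 CPM.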

How the results depend on the processing

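Of the recomputed main counts, 36 stayed within 1.5 times the reported one and 12 did not. With a minimum mean of 5 CPM, 2017 genes were higher and 1340 lower in the Rectum cells, and 963 and 716 in the wounded Rectum cells; with 50 CPM these were 379 and 252, and 121 and 156, since the minimum sets how many genes enter. Restricted to the 3810 genes under 2-fold between libraries in Basal and Suprabasal cells, a choice made after seeing the data, 89 were higher and 132 lower in the wounded Rectum cells. Cells named Basal differed in keratins between the libraries, with Krt13 at a log2 ratio of 8.93 and Krt17 at -2.57. The part of the library in the genes left out by this restriction was therefore not tested. The group of highest goblet level held 52 cells in 3 groups and 15 in 5. At the marker share reached by 50% of the named Rectum cells, 64 unnamed barcodes were found in place of 129. No ratio of Krt8, Muc13, Muc3, Lgals4, Epcam or Krt17 changed sign; that of Krt17 ranged from -6.60 to -4.97, the latter with the authors' values, and the cause was not tested. No paired analysis was possible because there is 1 library per condition.

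Depth limits single genes: in 63 cells with 704191 UMIs, a count of 0 allows up to 4.26 CPM by the one-sided limit. Groups of 10 to 37 cells, mice pooled in 1 library, and clusters named from the same counts limit every contrast to these cells, and p-values were not given.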
